A study of Mus musculus with 3 samples.

Results

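The genes described here encode bone morphogenetic protein (BMP) ligands and the proteins that hold them back: the ligands Bmp2, Bmp4, Bmp6 and Bmp7, the secreted antagonists Grem1 (gremlin 1), Nog (noggin), Chrd (chordin) and Chrdl1 (chordin-like 1), and Bambi, a membrane protein that resembles a BMP receptor without its kinase. They were chosen by name, with earlier results of these data known, and their probes were found through transcript accessions. All 9 had a probe, 12 probes in all, among 20279 genes with a named probe. BMPs are secreted dimers of the TGF-beta superfamily that bind pairs of type I and type II receptors, which then phosphorylate the transcription factors Smad1, Smad5 and Smad9. Gremlin, noggin and chordin bind the ligands outside the cell and keep them from the receptors. BMP signalling is best known for inducing bone and cartilage, and it also acts in fat formation.

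The cells were primary mesenchymal stem cells (MSCs), which grow out from the marrow stroma, of 8-week-old male mice, sampled before osteogenic induction (day 0) and after 3 and 21 days with ascorbic acid at 50 µg/mL and beta-glycerophosphate at 10 mM. All cells were grown in αMEM with fetal bovine serum, and no genetic change is named in the labels. Each of the 3 groups was 1 array, hybridised with Cy3-labelled RNA, and the labels do not say whether the RNA of a sample was pooled. Every comparison is therefore between single arrays, with no replicate check and no p-value, and precision is limited by having 1 array a day.

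A level is the processed signal, the background-subtracted brightness of a spot in arbitrary units, and the ± beside it is the SD given by the scanner software's error model for that spot. Each member probe had 1 spot per array. A difference is on the log2 scale, after each array was divided by its 75th percentile, and a gene was called higher or lower from 2-fold on. A gene was measured in a comparison when both arrays were well above background by the software's mark. Where only 1 array was, the bright value was divided by the lowest signal above background on the other array, or by the dim spot's own signal if that was larger, which gives an at-least fold. The spread between cultures or animals is in none of these errors. For the 399 probes that each array carries 10 times, an SD was taken between the spots of a probe within each array. Scaled to a log2 difference, it was 0.19, and 0.39 for probes with signals under 50. That is the range of Bmp2 and Chrd and of Bmp6 at day 0. Variation between arrays or slides is not in this SD.

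The 75th percentile of the processed signal lay between 172.2 and 190.7 on the 3 arrays, and between 63.8% and 66.2% of the genes were well above background. Day 0 and day 21 were on the same slide and day 3 was alone on another, so its slide and its day cannot be told apart in any comparison with it. Of 10 osteoblast markers 9 had a named probe, and 4, 6 and 8 of these were well above background at day 0, 3 and 21. Their summed signals were 62399, 67860 and 55971, most of it Col1a1, which stayed within 2-fold. The sum does not show the other markers. At day 21 against day 0, 6 osteoblast markers were called higher and 0 lower, beside 15.4% and 17.7% of all genes. Among the 6 were Ibsp, at least 63.7-fold higher, and Alpl, at least 29.1-fold higher. Sp7, a factor that commits cells to the osteoblast lineage, was above background on none of the arrays. Of 11 adipocyte markers 6, 10 and 11 were above background, with summed signals of 1485, 7036 and 234488. The 5 smooth muscle markers went the other way in sum, 641468, 227877 and 114054. Sums were 12529, 12836 and 64391 for 8 chondrocyte markers, with Comp at 48888 at day 21. They were 68949.5, 125215 and 178697 for 9 bone marrow stromal markers, and 3633, 4978 and 3251 for 6 endothelial markers. At day 21 against day 0, 4 chondrocyte markers were called higher and 1 lower. Of the stromal markers 3 were higher and 0 lower, and of the endothelial markers 1 and 1. Among 7 macrophage markers with a named probe Ptprc, Adgre1 and C1qa were above background on no array. The other 4, Csf1r, Itgam, Cd14 and Lyz2, were above background on every array, with Itgam at 9633, 8333 and 15404. Of these, Cd14 and Lyz2 were called higher at day 21 against day 0, by 2.22 and 1.55 on the log2 scale. In such bulk RNA a change in the share of a cell type and a change in RNA per cell cannot be told apart, and the part of these cell types in the results below was not tested.

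Promoter windows were held for 4 members in the RefSeq table of the build GRCm38.p6, and 3 of them are shown because these genes passed 2-fold in at least 1 comparison: the ligands Bmp4 and Bmp6, higher at day 21, and the antagonist Grem1, lower after induction. Each runs 5′ to 3′ on the gene's strand from 250 bases before the annotated start to 50 after it. Capitals mark GGGCGG, the GC box bound by Sp1-type factors, and GGCGCC, a GC-rich element that Smad proteins can bind. Both were searched on both strands, and the matches shown do not overlap.

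Bmp4, chr14:46390620-46390919, minus strand: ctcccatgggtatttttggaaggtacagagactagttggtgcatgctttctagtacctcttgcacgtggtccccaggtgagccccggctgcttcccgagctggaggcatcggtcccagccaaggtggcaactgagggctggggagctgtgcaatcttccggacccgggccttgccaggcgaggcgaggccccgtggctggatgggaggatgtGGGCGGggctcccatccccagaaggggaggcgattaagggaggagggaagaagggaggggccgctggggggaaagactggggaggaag

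Bmp6, chr13:38345466-38345765, plus strand: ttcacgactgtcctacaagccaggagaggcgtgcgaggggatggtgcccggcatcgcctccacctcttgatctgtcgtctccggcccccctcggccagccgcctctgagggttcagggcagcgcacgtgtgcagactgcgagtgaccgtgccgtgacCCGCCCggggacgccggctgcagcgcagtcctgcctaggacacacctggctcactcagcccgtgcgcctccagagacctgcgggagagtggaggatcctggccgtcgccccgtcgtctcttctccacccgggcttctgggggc

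Grem1, chr2:113758599-113758898, minus strand: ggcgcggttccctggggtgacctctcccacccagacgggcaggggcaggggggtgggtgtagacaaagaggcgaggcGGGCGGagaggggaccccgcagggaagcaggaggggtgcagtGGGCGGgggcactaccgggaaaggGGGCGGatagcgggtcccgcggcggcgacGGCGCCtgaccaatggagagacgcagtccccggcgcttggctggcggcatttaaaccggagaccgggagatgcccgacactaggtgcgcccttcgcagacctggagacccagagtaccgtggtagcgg

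The Grem1 window held 3 GC boxes, which begin 173, 131 and 107 bases upstream of the start, and 1 GGCGCC at 78 bases upstream. Bmp4 had 1 GC box at 38 bases upstream, and Bmp6 had 1, on the opposite strand, at 93 bases upstream. Among all 32851 windows of this length 35.7% held a GC box and 11.9% held GGCGCC. The E-box CANNTG, a site of helix-loop-helix factors held by 72.3% of all windows, had 3 matches in Bmp4, 2 in Bmp6 and 0 in Grem1. None of the 3 windows held the RUNX motif TGTGGT (16.8% of all windows), TATAAA (13.6%), the TCF motif CTTTGAT (3.73%) or the Smad palindrome GTCTAGAC (0.213%), all searched on both strands. The windows were GC-rich, with 64% in Bmp4, 69.3% in Bmp6 and 70.7% in Grem1 against a median of 52.7% over all windows. The window of Chrd, a member that stayed within 2-fold, held 4 GC boxes and 1 GGCGCC, so these letters are not particular to the members that differed. A match is a description of these letters only.

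Among the ligands, Bmp4, Bmp6 and Bmp7 were higher at day 21 than on both earlier arrays, and Bmp2 was low at day 3. Bmp4, a ligand made by osteoblast precursors, had a processed signal of 1204 ± 120 at day 0, 1163 ± 116 at day 3 and 3262 ± 326 at day 21. The first 2 arrays were level and the day 21 array stood above them. The log2 difference was -0.07 ± 0.20 at day 3, 1.29 ± 0.20 (2.45-fold) at day 21 against day 0 and 1.36 ± 0.20 (2.57-fold) at day 21 against day 3. A second Bmp4 probe, listed for the same transcript, was at 2.72, 2.80 and 2.61 and above background on no array, so the probes of this gene disagree and the values above rest on 1 probe.

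Bmp6 was higher on each later array. The signals on the day 0, day 3 and day 21 arrays were 23.6 ± 3.55, 56.2 ± 6.31 and 144 ± 14.7, all well above background. The log2 difference was 1.23 ± 0.27 (2.35-fold) at day 3 and 2.47 ± 0.26 (5.53-fold) at day 21, both against day 0, and 1.23 ± 0.22 (2.35-fold) between day 21 and day 3. The day 3 value is the weakest of these: it was 0.66 when the arrays were scaled on spike-in RNA and 0.42 under normexp background correction, whose offset of 50 is above the day 0 signal. With normexp the differences at day 21 were 0.98 against day 0 and 0.57 against day 3, also under 2-fold.

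Bmp7, a ligand long used to induce bone experimentally, was high on the day 21 array alone. The signals were 76.9 ± 7.96 at day 0, 59.3 ± 6.30 at day 3 and 417 ± 41.7 at day 21. Its log2 difference was -0.39 ± 0.21 at day 3, 2.29 ± 0.21 (4.89-fold) at day 21 against day 0 and 2.69 ± 0.21 (6.43-fold) at day 21 against day 3. Both day 21 differences were smaller under normexp (1.73 against day 3) and stayed past 2-fold.

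Bmp2, a ligand sufficient to start bone formation in many settings, was low on the day 3 array. It gave 23.8 ± 3.41 at day 0, 6.74 ± 2.60 at day 3 and 31.4 ± 3.93 at day 21, and the day 3 spot was not well above background. Bmp2 was thus at least 2.28-fold lower at day 3 than at day 0 and at least 2.72-fold higher at day 21 than at day 3, while day 21 and day 0 differed by 0.25 ± 0.28. Under normexp these bounds were -0.36 and 0.38 on the log2 scale, under 2-fold. Both bounds rest on 1 dim spot of the array that had its own slide.

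**Figure D1:**
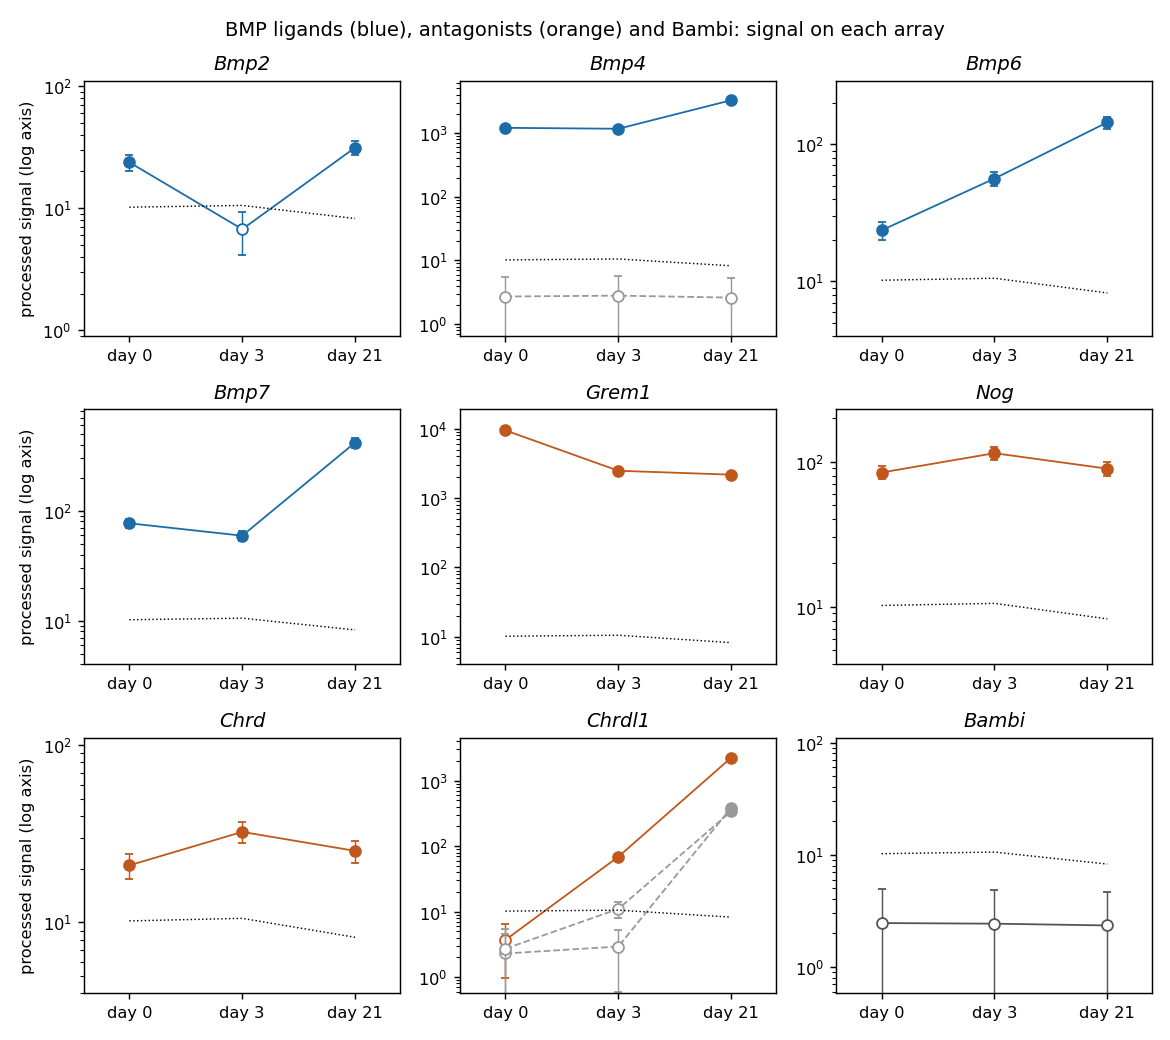
Processed signal (log axis) of each member probe on the day 0, day 3 and day 21 arrays, with 1 array per day. Bars are ± 1 SD of the error model, cut at the axis where they reach it; filled circles are well above background and open circles are not, grey dashed lines are further probes of the gene, and the dotted line is the lowest signal above background. Each panel has its own axis; Bmp4, Bmp6 and Bmp7 are highest at day 21, Grem1 is highest at day 0 and Bambi is open on all 3 arrays.

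Among the antagonists, Grem1 was lower and Chrdl1 was higher after induction, while Nog and Chrd stayed within 2-fold. Grem1, which binds BMP2, BMP4 and BMP7 and blocks them, gave signals of 9443 ± 944, 2474 ± 247 and 2172 ± 217 at day 0, 3 and 21. It was well above background on every array and highest at day 0. The log2 difference was -1.95 ± 0.20 (3.87-fold lower) at day 3 and -2.27 ± 0.20 (4.81-fold lower) at day 21, and day 21 against day 3 differed by -0.31 ± 0.20. Over the 9 alternative settings Grem1 ran from -2.52 to -1.85 at day 3 and from -2.53 to -2.02 at day 21 against day 0. The smooth muscle markers, whose sums are given above, were also highest at day 0, with all 5 at least 2-fold lower at day 3 and at day 21. Over all genes 8.54% and 17.7% were called lower in these comparisons. The part of the smooth muscle markers in the Grem1 difference was not tested.

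Chrdl1, a chordin relative that binds BMPs through cysteine-rich domains, went from background to a bright spot. Its brightest probe gave 3.71 ± 2.75 at day 0, 69.0 ± 7.43 at day 3 and 2249 ± 225 at day 21. The day 0 spot was not well above background. Against day 0 the gene was at least 6.67-fold higher at day 3 and at least 199-fold higher at day 21, and between day 21 and day 3 it was 29.8-fold higher (4.90 ± 0.21). The first of these was 0.77 on the log2 scale under normexp, below 2-fold. The day 21 bound against day 0, 7.64 on this scale, was 4.74 under normexp and 5.88 as the mean over probes of the gene.

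The 2 further Chrdl1 probes are listed for another transcript of the gene and were bright at day 21 only. One gave 2.30, 2.94 and 386 at day 0, 3 and 21, the other 2.72, 11.0 and 341. At day 21 they were at least 34.2-fold and at least 30.2-fold higher than at day 0, and at least 33.5-fold and at least 28.3-fold higher than at day 3. All 3 probes put day 21 far above both earlier days, and only the brightest was above background at day 3. Of the adipocyte markers, which were above background in larger number at day 21, 10 of 11 were called higher at day 21 than at day 3. Of 9 osteoblast markers 5 were, Dmp1 and Phex by a bound, and of 8 chondrocyte markers 4 were. Over all genes 8.99% were called higher in this comparison, and 14.1% under spike-in scaling. The part of these cell types in the Chrdl1 difference was not tested.

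Nog, a high-affinity antagonist of BMP2 and BMP4, was at 84.1 ± 8.76, 114 ± 11.7 and 89.3 ± 9.25 at day 0, 3 and 21. The differences were 0.42 ± 0.21 at day 3, -0.06 ± 0.21 at day 21 against day 0 and -0.48 ± 0.21 at day 21 against day 3. None passed 2-fold, and the day 3 difference was -0.15 under spike-in scaling. Chrd, the antagonist that tolloid proteases cleave, was at 21.0 ± 3.37, 32.4 ± 4.26 and 25.3 ± 3.62. Its differences of 0.61 ± 0.30, 0.12 ± 0.31 and -0.48 ± 0.28 were within 2-fold. All were of the order of the spread between spots within an array, scaled to a difference, an SD of 0.39 for signals under 50. The first was 0.04 under spike-in scaling and 0.14 under normexp.

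Bambi, the receptor-like inhibitor that is itself a BMP and TGF-beta target in many cells, was above background on no array. Its signals were 2.45 ± 2.46, 2.42 ± 2.43 and 2.33 ± 2.34, each no larger than its error, so no fold is given. At this brightness a difference in Bambi was not detectable.

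**Figure D2:**
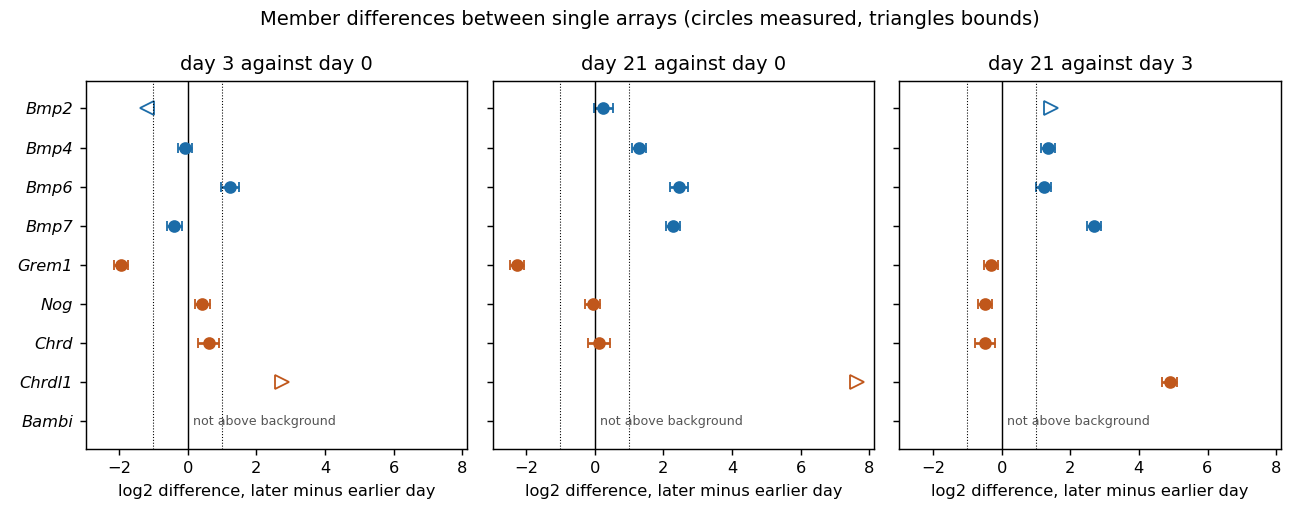
Log2 difference of each member in the 3 comparisons, later minus earlier day. Circles are measured differences with ± 1 SD of the error model, open triangles are bounds that point toward the larger difference, and dotted lines mark 2-fold; Grem1 lies left of the line at both days against day 0, and Bmp4, Bmp6, Bmp7 and Chrdl1 lie right of it at day 21.

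Counting measured differences and bounds together, 8 of the 9 members were above background on at least 1 array of each comparison. At day 3 against day 0, 2 were called higher (Bmp6, and Chrdl1 by a bound) and 2 lower (Grem1, and Bmp2 by a bound), where 9.32% of 13600 genes were called higher and 8.54% lower. Between day 21 and day 0, 4 were higher (Bmp4, Bmp6, Bmp7 and Chrdl1) and 1 lower (Grem1), beside 15.4% and 17.7% of 13970 genes. Between day 21 and day 3, 5 were higher (Bmp2, Bmp4, Bmp6, Bmp7 and Chrdl1) and 0 lower, beside 8.99% and 8.24% of 13803 genes. The 3 comparisons share arrays and are not independent of each other. The members were chosen with earlier results of these data known, so the shares of all genes beside them are a description and no test.

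The median measured member difference was 0.18 at day 3, 0.25 at day 21 against day 0 and 1.23 at day 21 against day 3, where the medians over all measured genes were -0.08, -0.21 and -0.10. With genes known by a bound set at that bound, Chrdl1 among them, the member medians were 0.18, 0.77 and 1.30, and those of all genes -0.07, -0.18 and -0.09. In size alone the member medians were 0.52, 1.29 and 1.23, and those of all measured genes 0.40, 0.61 and 0.41. All 4 ligands were at least 2-fold higher at day 21 than at day 3, Bmp2 by a bound. Of the 4 secreted antagonists 1 was.

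A scaling that divides a whole array by 1 number shifts all genes alike and leaves the spread between members as it is; quantile normalization does not, and its values follow. Relative to Grem1, Bmp4 was 3.69-fold higher at day 3 than at day 0 (log2 1.88 ± 0.29) and 11.8-fold higher at day 21 (3.56 ± 0.29). Bmp7 was 2.94-fold higher at day 3 and 23.6-fold higher at day 21 (4.56 ± 0.29) on this measure, and Bmp6 9.10-fold and 26.6-fold (4.74 ± 0.33). These ratios show unequal change between the probes of a pair, not the amounts of the 2 proteins. At day 21 against day 0 the values were 3.54 for Bmp4, 4.35 for Bmp7 and 4.46 for Bmp6 under quantile normalization, and 3.49, 3.72 and 3.20 under normexp. Grem1 was the only antagonist set against the ligands here, and it was itself lower at both days. At day 3 against day 0 Grem1 differed by -1.95, Bmp4 by -0.07, Bmp7 by -0.39 and Bmp6 by 1.23. The day 3 ratios of Bmp4 and Bmp7 thus reflect the lower Grem1 and no higher ligand signal. Nog (0.42) and Chrd (0.61) were within 2-fold at day 3, and Chrdl1 was higher by at least 2.74. At day 21 against day 0 Nog (-0.06) and Chrd (0.12) stayed within 2-fold. Chrdl1 was higher by at least 7.64 (at least 4.74 under normexp), more than Bmp4 (1.29), Bmp6 (2.47) or Bmp7 (2.29).

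When the arrays were scaled on spike-in RNA, the median difference over all measured genes moved by -0.57 at day 3 against day 0, by -0.27 at day 21 against day 0 and by 0.31 at day 21 against day 3. Of the called genes 52.2% were higher at day 3 against day 0, and 15.7% under spike-in scaling. The share was 46.5% at day 21 against day 0, 32.4% under spike-in scaling and 61.8% with the 75th percentile of spots above background. Between day 21 and day 3 it was 52.2%, 76.5% and 71.3%.

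**Figure D3:**
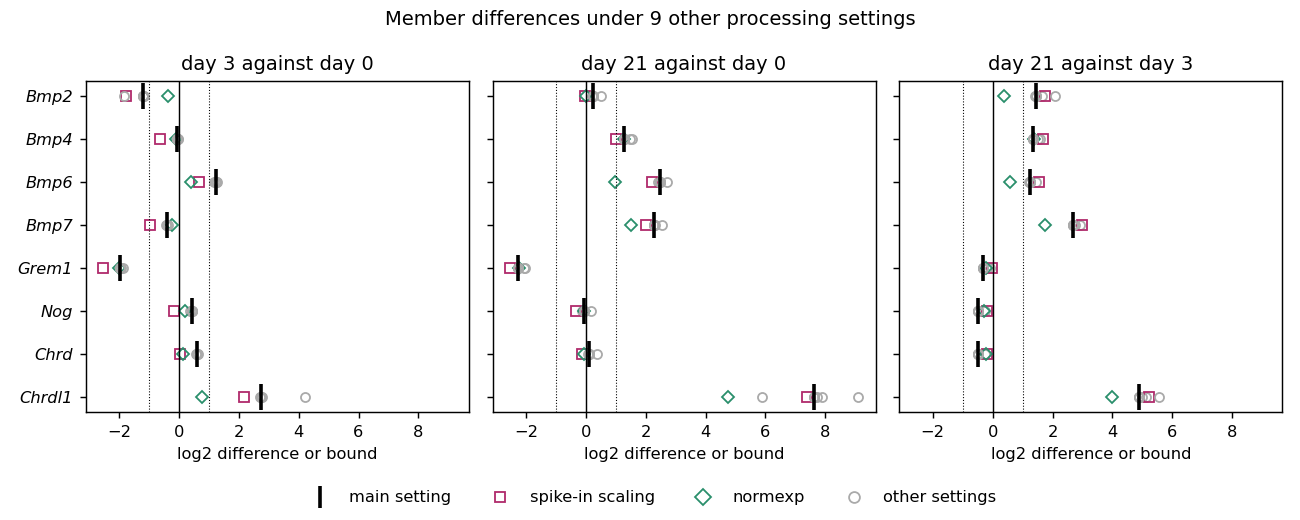
Log2 difference or bound of the 8 members above background under the main setting (black bar) and 9 other processing settings (symbols), for the 3 comparisons; dotted lines mark 2-fold. Squares are spike-in scaling, diamonds normexp and grey circles the other settings; Bmp6, Bmp2 and Chrdl1 cross the 2-fold line under at least 1 of the first 2 at day 3 against day 0, and Grem1 stays left of the 2-fold line against day 0 in all of them.

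The other genes of the pathway were taken from 7 lists with 70 genes, all with a named probe. At day 3 against day 0, 56 of them were above background on at least 1 array, and 5 were called higher (8.93%) and 17 lower (30.4%). At day 21 against day 0, 12 of 58 were higher (20.7%) and 15 lower (25.9%), and at day 21 against day 3, 8 of 56 were higher (14.3%) and 2 lower (3.57%). Over all genes above background on at least 1 array of a comparison, 9.32% were higher and 8.54% lower at day 3 against day 0. The shares were 15.4% and 17.7% at day 21 against day 0, and 8.99% and 8.24% at day 21 against day 3. The counts by list below are to be read beside these shares. The lists too were chosen with earlier results of these data known, so the contrast with all genes is a description and no test. Under spike-in scaling 26 of the 56 other pathway genes were lower at day 3 against day 0, where 27.5% of all genes were lower. Under normexp 9 genes were lower, a count and not a share, where 4.19% of all genes were.

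Among 11 other BMP and GDF ligands, 3 were higher at day 3 and 0 lower, and 6 were above background on neither array of that comparison. Gdf10, a BMP3-related factor, had signals of 71.5, 359 and 2666 at day 0, 3 and 21, so that it was higher by 2.31 at day 3, by 5.07 at day 21 against day 0 and by 2.77 at day 21 against day 3. Gdf6, a ligand of joint and skull development, went from 3.54, below background, to 71.4 and 58.4, at least 6.90-fold and at least 5.17-fold higher than at day 0. Bmp8a was higher by 1.81 and 1.74 against day 0, whereas Bmp8b was at least 2.61-fold lower at day 21, and these closely related genes may share signal. Bmp5 was above background at day 21 only, at least 2.65-fold over day 0 and at least 2.60-fold over day 3. Bmp10, Bmp15, Gdf2 and Gdf7 were above background on no array.

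Among 16 other extracellular antagonists and modulators, 2 were higher and 3 lower at day 3, and 3 were higher and 3 lower at day 21, both against day 0. In each of these comparisons 5 of the 16 were above background on neither array. The lower genes included Crim1, a membrane protein that binds BMPs, with differences of -2.11 and -2.17 against day 0, and Fstl3, a follistatin relative, with -1.15 and -1.33. Higher were Fst (follistatin, which mainly binds activins), by 1.91 and 2.05, and Sostdc1 (an antagonist of BMP and Wnt signalling), by at least 6.33-fold and at least 7.73-fold. Bmper, which binds BMPs and chordin, was higher by 1.70 at day 21 against day 0 and by 1.29 against day 3, where it was the only gene of the list called.

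Of the 3 proteases that cleave chordin, Bmp1 gave signals of 8656, 8033 and 9532 and was within 2-fold, Tll1 was lower at day 3 (-1.17) and at day 21 (-1.50), both against day 0, and Tll2 was above background on no array. Between day 21 and day 3, 0 of the 2 measured were called.

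Among 11 receptors and co-receptors, 0 were higher and 3 lower at day 3, and 2 were higher and 2 lower at day 21 against day 0. In each of these comparisons 1, Rgmb, was above background on neither array. The type I receptor Bmpr1b, known for its part in skeletal patterning, was at 163, 23.7 and 13.9, with differences of -2.80 and -3.70 against day 0. The other type I receptors of the list stayed within 2-fold at day 3: Bmpr1a gave 707, 649 and 1041, Acvr1 3138, 1945 and 2849, and Acvrl1 1055, 1767 and 2561, the last higher by 1.13 at day 21 against day 0. The type II receptor Acvr2a was higher by 1.45 at day 21 against day 0 and by 1.16 against day 3, and Acvr2b was lower at day 3 (-1.19) and higher by 1.18 at day 21 against day 3. Bmpr2, the type II receptor specific to BMPs, gave 372, 223 and 457 and was not called. Hjv, a BMP co-receptor, was above background at day 0 only, at least 2.30-fold and at least 3.21-fold over day 3 and day 21.

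Of the 4 Smads that carry the signal, Smad9 was lower at day 3 (-1.83) and higher by 1.09 at day 21 against day 3, with signals of 85.6, 24.5 and 56.9, while Smad1, Smad5 and Smad4 were not called in any comparison. Among 9 intracellular inhibitors, all measured, 4 were lower and 0 higher at day 3. These were the inhibitory Smads Smad6 (1082, 219 and 449) and Smad7 (487, 86.0 and 98.4), Skil (579, 139 and 186), a repressor of Smad transcription, and Smurf2, a ubiquitin ligase, with differences of -2.33, -2.52, -2.10 and -1.02. Between day 21 and day 0 Smad6 (-1.42), Smad7 (-2.45), Skil (-1.80) and Smurf1 (-1.46) were lower, and the antiproliferative genes Tob1 (1.32) and Tob2 (1.66) were higher. Tob2 was the only one called at day 21 against day 3 (1.24).

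Of 16 genes known as BMP targets, 15 were measured, and at day 3 against day 0, 5 were lower and 0 higher. The immediate targets Id1, Id2, Id3 and Id4, inhibitors of helix-loop-helix factors, were called in no comparison. Id1 gave 3706, 2293 and 3373, Id2 1300, 1039 and 1710, Id3 12092, 14228 and 15204 and Id4 376, 550 and 619. The homeobox gene Msx2 was at 2008, 581 and 292, with differences of -1.81 and -2.93 against day 0 and -1.12 at day 21 against day 3. Its relative Msx1 was higher by 1.34 at day 21 against day 0, so these paralogues differed in opposite directions. Dlx2 (-1.96), Gata3 (-1.61), Hey1 (-1.42) and Dlx5 (-1.10) were the other lower genes at day 3. At day 21 against day 0 Dlx2 (-1.71), Gata3 (-1.63) and Hes1 (-1.85) were lower, and against day 3 Hey1 was higher by 1.96 and Hes1 lower (-1.22). Runx2 was dim at 18.7, 20.7 and 16.0 and was not called.

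**Figure D4:**
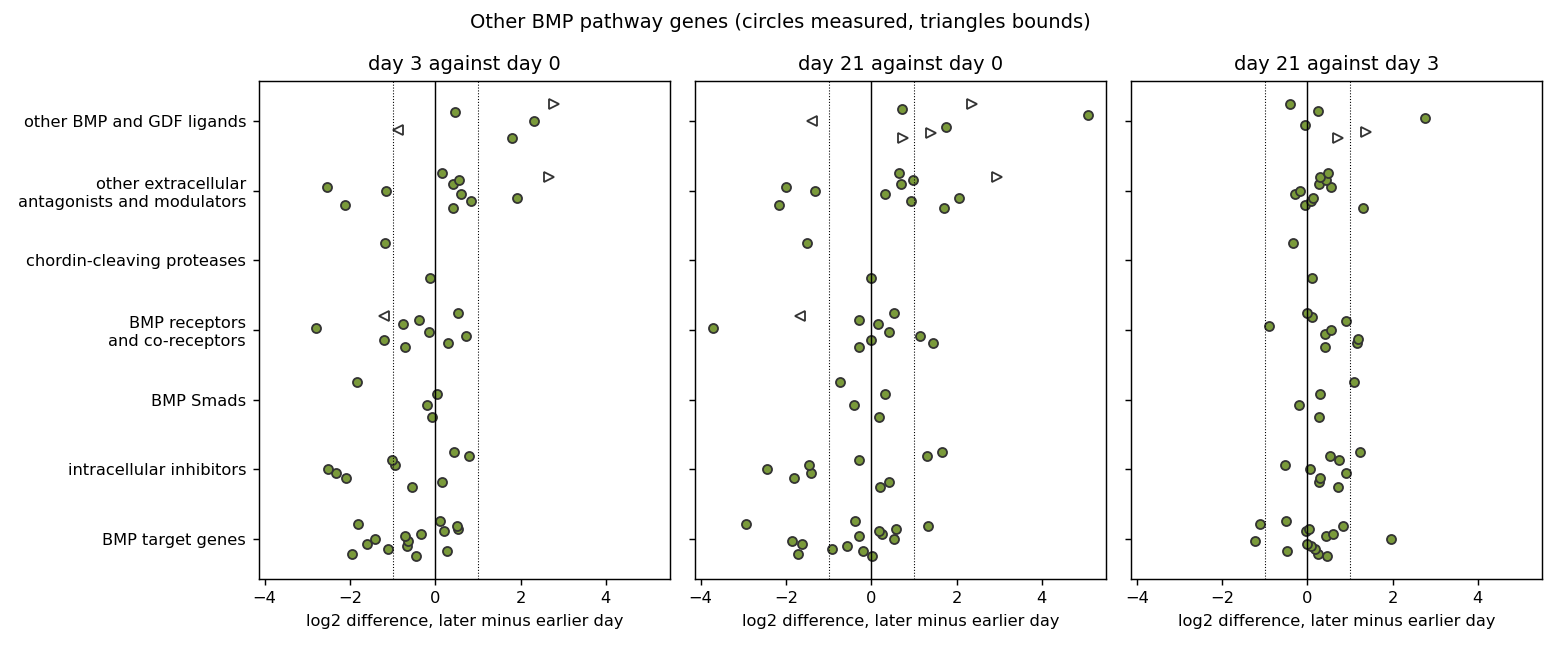
Log2 difference, later minus earlier day, of each gene in 7 BMP pathway lists, for the 3 comparisons; green circles are measured, open triangles are bounds, and dotted lines mark 2-fold. At day 3 against day 0 the intracellular inhibitors and the target genes have 4 and 5 genes left of the lower line and 0 right of the upper one, and the other ligands have 3 right of it.

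The genes most like each member over the 3 arrays were found by the distance between their log2 values, centred on each gene's mean, among 11809 genes above background on all arrays. For Bmp4 these were Thoc1 (distance 0.07), with signals of 18.8, 18.6 and 48.5, and Zmynd12 (0.09). For Bmp6 they were Bcat2 (0.03), with 529, 1221 and 3211, and Pde7b (0.03). Bmp7 was closest to Adamtsl1 (0.21), with 121, 114 and 697, and to Cxcl12 (0.24), with 11161, 10597 and 61200, and Grem1 to Rassf5 (0.04), with 765, 194 and 173, and Epha2 (0.05). With 3 arrays such likeness is only a description, and how common distances of this size are was not tested. Bmp2 and Chrdl1 were left out because they were below background on 1 array, Bambi because it was on all, and Nog and Chrd because their range was under 1.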

How the data were processed

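Per the file headers, each deposited value is a spot's intensity on a linear scale, background-subtracted by Agilent Feature Extraction 10.10.1.1 on 1-colour arrays with no scaling from array to array (the submitters' processing notes name version 12.0). The authors' value table gave the same intensity for every probe, with a largest relative difference of 0. Feature Extraction's 0 or 1 marks gave spots above background and outliers. Each array held 59305 non-control spots; 200, 115 and 146 outlier spots were left out at day 0, 3 and 21, and no non-control spot was saturated (0). Log2 signals minus the array's 75th percentile were averaged per probe. Probes were named by unversioned accession in a RefSeq table of GRCm38.p6, which names genes only: 26755 probes matched 1 gene, 28909 none or several, and 17 had no usable spot on an array. Of several probes of a gene the one with the highest mean over the arrays was used. A probe counted as above background when at least 50% of its spots were.

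Differences were called at 2-fold, with bounds, in Python 3.11.15 with numpy 2.4.6 and pandas 2.3.3. Calls were tested on simulated data. Alternatives were other scalings (75th percentile of spots above background, quantile, 251 E1A spike-in spots), normexp in limma 3.58.1 with an offset of 50, other marks, the mean over probes, outlier spots kept and the value table. Normexp was run on median signals because the files have no mean signal column. All members are named, with every listed pathway gene past 2-fold except 1 that is counted but not reported here, and the 2 nearest genes of members above background on all arrays with a range of at least 1. Members and lists were chosen with earlier results of these data known. Proteins, probe sequences and the other members' promoters were not used here.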

Additional observations from a re-analysis of the deposited data

How the results depend on the processing

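Of 215 member differences or bounds recomputed under 9 other settings, 208 kept their call, and 0 of the called ones changed sign. Of 135 recomputed counts 120 stayed within 1.5 times. The value table, outlier and floor settings gave the same member values and counts as the main setting. Their rows are among those kept and say nothing on how firm a call is. The calls that changed were of Bmp2, Bmp6 and Chrdl1, under normexp or spike-in scaling. Spike-in scaling gave 1 member higher at day 3 against day 0, 26 other pathway genes lower in that comparison, and 14 higher and 0 lower at day 21 against day 3. Over all genes that setting called 5.13% higher and 27.5% lower at day 3 against day 0, and 14.1% and 4.33% at day 21 against day 3. Normexp, whose offset of 50 is above the dim signals, gave 0 members higher, 1 lower and 1 different at day 3 against day 0, with 3 other pathway genes higher and 9 lower. At day 21 against day 3 it gave 3 members higher and 3 different, with 4 other pathway genes higher and 1 lower. Over all genes normexp called 4.99% and 4.19% higher and lower in the first comparison, and 4.78% and 3.45% in the second. The mean over probes of a gene gave 1 member higher at day 3 against day 0, as Chrdl1 then had no value. The 75th percentile of spots above background gave 1 other pathway gene lower at day 21 against day 3. The quantile, outlier, value table, mark and floor settings moved no count past 1.5 times. With 1 array per group no array can be left out and the slide cannot be fitted as a block. Signal over background limits Bmp2, Bmp6 at day 0, Chrd, Chrdl1 at day 0 and Bambi.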
